A study of Mus musculus with 15 samples.

Results

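Clone KO22 was compared with clone KO26, which are both *Prom1*-knockout (KO) lines of mouse retinal pigment epithelium (mRPE) cells. The members were chosen by their cell line label: 3 libraries of mRPE Prom1KO 22 and 2 libraries of mRPE Prom1KO 26, which makes 5 of the 15 RNA-seq libraries of the series. The series set wild-type (WT) cells and RPE tissue against their *Prom1*-KO counterparts, and its 4 WT mRPE libraries serve here as a reference. Both KO26 libraries were set aside as outliers in the study's own analysis after batch correction, so the KO26 group consists of libraries that its WT comparison did not use. The mRPE cells came from C57BL/6J mice and were pooled, immortalised with the HPV E6 and E7 genes and selected with puromycin. For the KO lines they were made to express Cas9 from a lentivirus, selected again and given a synthetic guide RNA against *Prom1*. The methods also describe Cas9-expressing cells with a scrambled guide, but whether the sequenced WT libraries are those cells is not given in the sources used here. Per the methods of the study the lines are independent and carry deletions at separate sites within *Prom1*, while 1 guide sequence is given, so the deleted bases of the lines may differ. Each KO genotype is represented by 1 line, and how the lines were isolated is not given in the sources used here. Nothing in the labels says that the libraries of a line came from separate cultures, so the p-values measure the spread between these libraries, which may be technical.

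*Prom1* encodes prominin-1, a cholesterol-binding membrane protein of cell protrusions that is needed for the outer segment discs of photoreceptors. The RPE is the pigmented cell layer behind the photoreceptors, where it takes up shed outer segments, recycles retinoids and forms the outer blood-retina barrier. A line grown from few edited cells carries the edit together with whatever else set those founder cells apart, so lines that share a parental culture and a target gene can be compared with each other as well as with the control.

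The guide is printed because it is what both lines were given in common, with the adjoining bases that Cas9 requires, the PAM, in capitals.
Prom1 guide: cgttgctgcaacaaatgcggCGG
The 20 lower-case bases matched the minus strand at chr5:44213310-44213329 of GRCm39, inside the coding part of exon 5 of the 28 exons of the canonical transcript. That exon spans chr5:44213220-44213425, and 25 of the 34 annotated *Prom1* transcripts have an exon at the site. *Prom1* itself was not analysed here, because the culture count table analysed here holds no row for it, so the edit could not be checked from its mRNA.

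Values are CPM, read counts scaled to a common library size with edgeR's TMM factors, and those of a clone are given in replicate order. Replicate 1 of each group was sequenced in batch 1 and all others in batch 2, by the prefixes of the library names. Total counts were 11863633 to 20760399 per library in KO22, 8076188 to 24175274 in KO26 and 10187978 to 27537863 in WT. The median absolute log2 difference of a gene between the clones within a batch was 0.60 to 0.65. It was 0.153 between the 2 batch 2 libraries of KO22, 0.376 and 0.384 between either of them and replicate 1 of KO22, and 0.476 between the 2 KO26 libraries. KO26 lay 0.268 to 0.368 from the WT libraries of its batch and KO22 0.60 to 0.704. Of 13 RPE markers only *Pmel*, *Best1* and *Mitf* were among the genes tested, so the cells are called by their label. Markers of photoreceptors, endothelium, leukocytes, melanocytes and Schwann cells, Müller glia and neurons, and lens and cornea had 7, 5, 3, 2, 6 and 3 members tested, of which 1, 0, 0, 0, 1 and 0 were higher and 0, 0, 0, 0, 0 and 2 lower in KO22. In bulk RNA, fewer cells of a type and less RNA per cell cannot be told apart.

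The clones differed in 3797 of the 20737 genes tested, 18.3% of them. KO22 was above KO26 for 1568 genes (7.56%) and below it for 2229 (10.7%), by edgeR's quasi-likelihood test with batch as a term. A gene was called where the adjusted p was below 0.05 and the size of the log2 fold change (log2FC, KO22 minus KO26) exceeded 1.2. Protein-coding genes made up 1092 of the higher and 1505 of the lower genes. The differences were often large: 1107 called genes had an absolute log2FC over 3 and 330 over 5, of which 170 were higher and 160 lower in KO22. Every KO22 library was above both KO26 libraries for 23.4% of the genes tested and below both for 24.6%. Without a fold limit, 9156 genes had an unadjusted p under 0.05.

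Against the shared WT libraries, 2367 genes (11.4%) were higher and 2817 (13.6%) lower in KO22, and 250 (1.21%) were higher and 149 (0.719%) lower in KO26, by the same limits. These comparisons use the same 4 WT libraries, so the fold changes of both clones against WT are given side by side below and are not compared as counts.

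**Figure D1:**
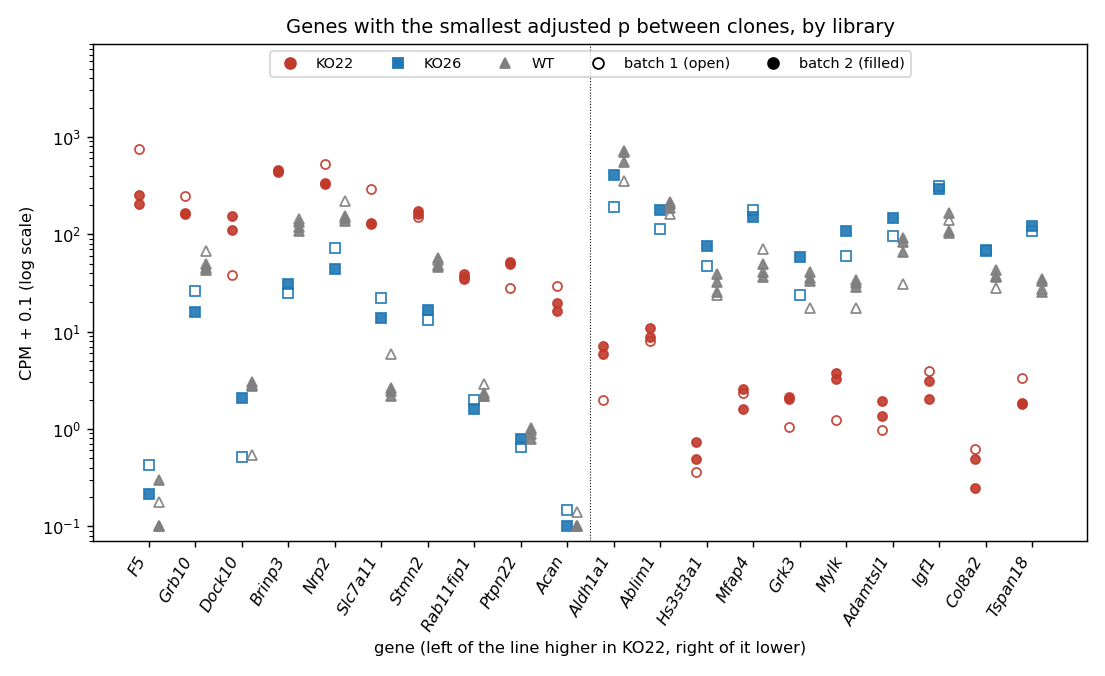
CPM + 0.1 on a log scale in each of the 9 culture libraries for the 10 genes of smallest adjusted p in each direction between KO22 (circles) and KO26 (squares), with WT (triangles), batch 1 open and batch 2 filled. The 3 KO22 libraries lie on one side of both KO26 libraries, which the choice of the genes required, and *F5* has the widest gap.

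Among the genes higher in KO22, *F5*, coagulation factor V, was at 754, 205 and 251 CPM in KO22 and at 0.325 and 0.116 CPM in KO26. Every KO22 library thus lay far above both KO26 libraries, and the 4 WT libraries, at 0 to 0.196 CPM, lay with KO26 (log2FC 11.07 ± 0.42 SE, edgeR adjusted p = 3.01e-07). *Slc7a11*, the cystine-glutamate antiporter that feeds glutathione synthesis, was at 288, 127 and 130 CPM in KO22 and at 22.3 and 13.6 CPM in KO26 (log2FC 3.46 ± 0.18, edgeR adjusted p = 1.14e-06). Both clones stood above the WT range of 2.06 to 5.76 CPM, with log2 fold changes against WT of 5.73 in KO22 and 2.27 in KO26, so the clones shared a direction and differed in its size.

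For several of these genes WT lay between the clones. *Brinp3*, a gene best known from neurons, was at 437, 460 and 450 CPM in KO22, 24.9 and 30.9 CPM in KO26 and 109 to 143 CPM in WT. The clone difference (log2FC 4.01 ± 0.19, edgeR adjusted p = 9.84e-07) was made of a log2 rise of 1.83 over WT in KO22 and a fall to -2.18 in KO26. *Grb10*, an imprinted adaptor that dampens insulin receptor signalling, was at 246, 165 and 161 CPM in KO22 and 26.3 and 16.0 CPM in KO26, around a WT range of 42.8 to 67.5 CPM. *Nrp2*, a co-receptor for semaphorins and VEGF-C, and *Stmn2*, a microtubule-destabilising protein, had the same order of groups, with log2FC 2.87 ± 0.14 and 3.45 ± 0.18. For *Nrp2* the log2 fold changes against WT were 1.21 in KO22 and -1.66 in KO26, and for *Stmn2* they were 1.65 and -1.79. All 4 genes passed the test in both clones against WT, in opposite directions.

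*Dock10*, a guanine nucleotide exchange factor, was at 37.9, 156 and 110 CPM in KO22 and 0.418 and 1.97 CPM in KO26. Its WT libraries, at 0.437 CPM in batch 1 and 2.66 to 2.95 CPM in batch 2, sat near KO26 (log2FC between the clones 6.22 ± 0.29, edgeR adjusted p = 9.38e-07). *Rab11fip1*, which acts in recycling endosomes, was at 36.1, 35.0 and 38.8 CPM in KO22 and at 1.90 and 1.50 CPM in KO26. *Ptpn22*, a tyrosine phosphatase known from lymphocytes, was at 28.2, 49.8 and 51.6 CPM against 0.557 and 0.694 CPM. Neither *Rab11fip1* nor *Ptpn22* passed the test between KO26 and WT, with log2 fold changes of -0.46 and -0.30.

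Several genes were counted in KO22 and barely at all in KO26. *Tmem35a*, a chaperone of nicotinic acetylcholine receptors, had 1723 counts over the KO22 libraries and 1 over the KO26 libraries, a depth-adjusted ratio of 1151 with a 95% counting interval of 206 to 45498. *Acan*, the large proteoglycan of cartilage, had 929 counts and 1 count (621, 111 to 24543), and *Xylt1*, which starts the glycosaminoglycan chains of proteoglycans, had 605 counts and 1 count (404, 72.3 to 15993). *Cdkn2b*, the cell cycle inhibitor p15, had 857 counts and 1 count (573, 102 to 22643). *Selp*, P-selectin, had 638 counts against 0, at least 142-fold higher, and *Slfn4*, an interferon-inducible Schlafen gene, had 862 against 0, at least 192-fold higher, each against a floor of 3 counts over the group. *Slfn4* varied within the clone, at 2.77 CPM in batch 1 and 30.0 and 16.1 CPM in batch 2. *Sdk2*, a synaptic adhesion protein, at 12.6 to 17.7 CPM in KO22, *Tmprss11f*, a transmembrane serine protease, at 8.07 to 20.8 CPM, *Esm1*, endocan, at 5.54 to 17.7 CPM, and *Palmd*, palmdelphin, at 10.4 to 17.6 CPM were each at 0.116 CPM or less in both KO26 libraries. These intervals cover counting error only.

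*Cdkn2a*, the neighbour of *Cdkn2b* that encodes p16 and p19ARF, was low in both clones, at 2.51, 2.41 and 3.49 CPM in KO22 and 0.0928 and 0 CPM in KO26 (log2FC 5.2 ± 0.77, edgeR adjusted p = 5.71e-04). The WT libraries had 0 to 0.0686 CPM of it, and 0 to 0.358 CPM of *Cdkn2b*.

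Among the genes lower in KO22, *Aldh1a1*, the retinaldehyde dehydrogenase that makes retinoic acid, was at 1.90, 7.09 and 5.82 CPM in KO22 and at 189 and 408 CPM in KO26. The WT libraries were at 349 CPM in batch 1 and 552 to 716 CPM in batch 2, so each KO26 library lay below the WT of its batch. KO26 minus WT, at -0.73, did not pass the test. Every KO22 library lay far below KO26 (log2FC -6.12 ± 0.23, edgeR adjusted p = 3.01e-07). *Ablim1*, an actin-binding LIM protein, was at 7.87, 10.7 and 8.77 CPM in KO22 and 114 and 178 CPM in KO26, with a WT range of 162 to 216 CPM (log2FC -4.04 ± 0.16). Against WT the log2 fold change of *Ablim1* was -4.36 in KO22 and -0.32 in KO26, and the latter did not pass the test.

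Other genes with the smallest p-values were also above WT in KO26, though not all of them passed the test there. *Mylk*, myosin light chain kinase, was at 1.12, 3.66 and 3.18 CPM in KO22, 59.6 and 108 CPM in KO26 and 17.4 to 33.4 CPM in WT. Its log2 fold changes against WT were -3.33 in KO22 and 1.82 in KO26, and both passed the test, as did those of *Mfap4*, a microfibril-associated protein, at -4.60 and 1.65, and of *Tspan18*, a tetraspanin, at -3.80 and 1.91. *Igf1*, insulin-like growth factor 1, was at 3.81, 2.99 and 1.94 CPM in KO22, 316 and 292 CPM in KO26 and 102 to 167 CPM in WT, a log2FC of -6.67 ± 0.28 between the clones (edgeR adjusted p = 3.72e-07). *Hs3st3a1*, which adds 3-O-sulfate to heparan sulfate, had a log2FC of -7.16 ± 0.29, *Adamtsl1*, a matrix protein of the ADAMTS-like family, of -6.72 ± 0.27, and *Grk3*, a G protein-coupled receptor kinase, of -4.77 ± 0.19. None of the 3 KO22 libraries overlapped a KO26 library for any of these genes, which the choice of the genes required. The log2 fold changes of KO26 against WT were 1.18 for *Igf1*, 1.14 for *Hs3st3a1*, 1.18 for *Adamtsl1* and 0.58 for *Grk3*. All 4 were under the fold limit of 1.2.

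Among the called protein-coding genes with at least 10 CPM in KO26 and no overlap of libraries, the largest falls by fold were in *Fmod*, *Megf6* and *Scube1*. *Fmod*, fibromodulin, was at 0, 0.241 and 0 CPM in KO22 and 37.5 and 62.3 CPM in KO26, and its ratio of KO26 to KO22 counts was 403 with a 95% counting interval of 172 to 1245. *Megf6* had 1383 counts in KO26 and 5 in KO22 (ratio 414, 177 to 1277), and *Scube1*, a secreted Hedgehog-binding protein, had 615 and 2 (460, 127 to 3809). *Col8a2*, a collagen VIII chain of basement membranes, was at 0.519, 0.145 and 0.388 CPM in KO22 and 67.5 and 68.1 CPM in KO26. *Tox*, a nuclear HMG-box protein, *Slc1a6*, a glutamate transporter, *Adh1*, an alcohol dehydrogenase that oxidises retinol, and *Cldn2*, the pore-forming claudin, had log2 fold changes of -7.11, -7.01, -7.75 and -6.83. *Cldn2* differed within KO26, at 22.4 CPM in batch 1 and 67.1 CPM in batch 2, and was at 0.675 CPM or less in KO22.

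The genes with the largest folds in which KO26 stood apart from both WT and KO22 were mostly low. *Igfbp5*, an IGF-binding protein, was at 19.8 and 13.4 CPM in KO26, at 0.259, 0 and 0.0776 CPM in KO22 and at 0.119 to 2.06 CPM in WT, with a log2 fold change against WT of 4.59 in KO26. *Krt14*, a basal keratin, was at 9.84 and 2.08 CPM in KO26 and at 0.0482 CPM or less in KO22, and *P2ry1*, a purine receptor, at 12.2 and 4.51 CPM and at 0.145 CPM or less. *AW551984* had 149 counts in KO26 against 0 in KO22, at least 74.3-fold higher. *Kcnh5*, a potassium channel gene, was called at 1.21 and 1.62 CPM in KO26, but KO22 replicate 2 reached 0.530 CPM and the call was lost in 5 of 9 fits that left out 1 library.

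In the other direction, *Sema5a*, an axon guidance protein, was at 43.4, 29.8 and 28.2 CPM in KO22, 0.186 and 0.116 CPM in KO26 and 0.954 to 1.72 CPM in WT. KO22 was thus above and KO26 below every WT library, at log2 fold changes of 4.72 and -2.96 against WT. *Csgalnact1*, which starts chondroitin sulfate synthesis, had log2 fold changes against WT of 1.93 in KO22 and -3.26 in KO26, *Ptprf*, a receptor tyrosine phosphatase, 2.88 and -1.82, *Htr2c*, a serotonin receptor, 3.08 and -3.15, and *L1cam*, a neural adhesion protein, 2.37 and -3.60. *Dync1i1*, a dynein chain, went the other way, at -4.44 in KO22 and 1.95 in KO26. Some of these falls rest on few counts. In KO26, *Htr2c* had 3 and 0 counts and *L1cam* 2 and 0, where WT had 0.715 to 1.65 CPM and 0.393 to 1.11 CPM. *Dync1i1* had 1, 2 and 0 counts in KO22. The sizes of these 3 falls are therefore uncertain. *Scin*, an actin-severing protein, and *Tnfrsf11a*, the receptor RANK, were at 1.12 CPM or less in every clone library, and their calls were lost in 2 and 7 of the 9 fits that left out 1 library.

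Of the genes other than *Prom1* that the study followed by qPCR in KO22 and a second KO line, *Pink1* was not called between the clones and the others were. The second line has a suffix that the labels lack, so whether it is the line sequenced here is not given. *Grem1*, a secreted BMP antagonist, was at 1960, 1008 and 837 CPM in KO22 and 60.2 and 114 CPM in KO26 (log2FC 3.77 ± 0.43, edgeR adjusted p = 1.2e-04). The WT libraries were at 80.9 CPM in batch 1 and 37.2 to 42.1 CPM in batch 2, and KO26 minus WT, at 0.83, did not pass the test (edgeR adjusted p = 0.21). *Igfbp2*, an IGF-binding protein, was at 7.18, 21.6 and 14.4 CPM in KO22 and 1597 and 1144 CPM in KO26, against 851 to 1176 CPM in WT. *Postn*, the matricellular protein periostin, was at 240, 414 and 287 CPM in KO22 and 5530 and 8898 CPM in KO26, against 7588 to 10282 CPM in WT. KO26 minus WT was 0.49 and -0.19 on the log2 scale and did not pass the test in either gene, while KO22 minus WT was -6.14 and -4.77.

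*Mertk*, the receptor tyrosine kinase through which the RPE engulfs outer segments, was at 3.29, 6.22 and 3.96 CPM in KO22 and 44.4 and 45.6 CPM in KO26 (log2FC -3.40 ± 0.21, edgeR adjusted p = 2.67e-06). Its WT range was 45.3 to 66.6 CPM, and KO26 minus WT was -0.24. *Ogn*, osteoglycin, was at 15.7, 16.7 and 14.4 CPM in KO22 and at 169 and 430 CPM in KO26, with the WT libraries at 555 to 854 CPM. *Pink1*, the kinase that marks damaged mitochondria, was at 3.55, 5.25 and 5.35 CPM in KO22 and 8.21 and 11.7 CPM in KO26, a log2FC of -1.15 ± 0.19 that was under the fold limit (edgeR adjusted p = 0.00107). Both clones were below the lowest WT library of *Pink1*, at 11.96 CPM, and only KO22 passed the test against WT, at -1.61 compared with -0.46 in KO26.

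Around the edited gene, which spans chr5:44150962-44259395, 14 protein-coding genes within 2 Mb were tested. Of these 5 were called, all lower in KO22: *Bst1*, *Cd38*, *Ldb2*, *Cpeb2* and *Cc2d2a*. Over all genes tested 10.7% were lower. *Ppihl*, the nearest tested gene on the *Cd38* side, was at 0.519, 1.11 and 0.388 CPM in KO22 and 0.0928 and 0.116 CPM in KO26 and was not called (log2FC 2.72 ± 0.97, edgeR adjusted p = 0.0515). *Bst1* and *Cd38*, related enzymes that make cyclic ADP-ribose, had log2 fold changes of -4.99 ± 0.60 and -2.36 ± 0.44. *Ldb2*, a LIM-domain-binding cofactor, had -2.88 ± 0.49, from 0.346, 0.241 and 0.310 CPM in KO22 and 4.69 and 1.04 CPM in KO26. *Tapt1*, on the other side of *Prom1*, was at 66.3, 57.4 and 52.5 CPM in KO22 and 74.9 and 59.4 CPM in KO26, a log2FC of -0.13 ± 0.13 (edgeR adjusted p = 0.442), with the KO22 and KO26 libraries overlapping. The calls of *Cpeb2* and *Cc2d2a*, at -1.42 and -1.21, were each lost on leaving out 1 library, KO26 replicate 2 for *Cpeb2* and any of KO22 replicate 1, KO22 replicate 3 and KO26 replicate 1 for *Cc2d2a*.

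**Figure D2:**
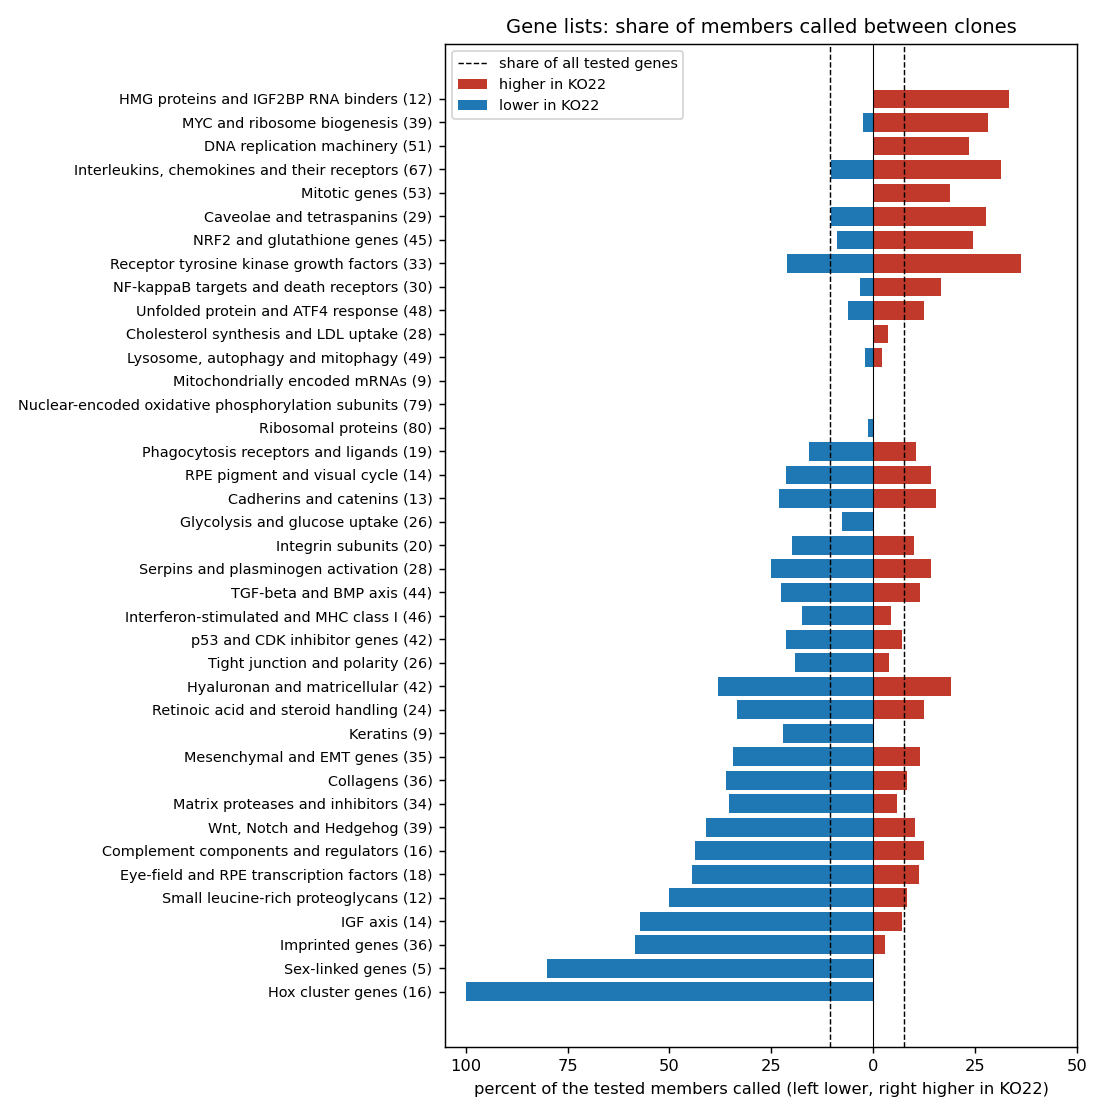
Percent of the tested members of 39 gene lists, with the number tested in brackets, called higher (right) or lower (left) in KO22 than in KO26, with dashed lines at the shares over all tested genes, 7.56% and 10.7%. The Hox list lies at the far left with 16 of 16 members lower, and the lists with more members higher than lower include receptor tyrosine kinase ligands, chemokines and DNA replication.

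The list counts below are to be read beside the shares over all genes tested, 7.56% higher, 10.7% lower and 18.3% in either direction. Homeotic genes, which set positional identity along the body axis, were lower throughout in KO22. All 16 Hox genes tested were called lower, with a median log2FC of -3.49 against 0.00 over all genes tested. *Hoxa5* was at 0, 0.723 and 0.466 CPM in KO22 and 7.56 and 7.52 CPM in KO26, where WT had 8.74 to 10.0 CPM. *Hoxa7* was at 0, 1.88 and 0.776 CPM in KO22 and 17.1 and 14.3 CPM in KO26, where WT had 15.7 to 17.9 CPM. KO26 thus lay next to WT in both genes, and KO22 far below, lowest in its batch 1 library. The call held for 15 or 16 of the 16 genes whichever library was left out, and for 11 in the fit of the 5 clone libraries alone.

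Imprinted genes, which are expressed from the allele of one parent, were often lower in KO22, 21 of 36 tested, with 1 higher and a median log2FC of -2.55. *Peg3*, a paternally expressed zinc finger gene, was at 6.14, 80.2 and 51.7 CPM in KO22 and 1983 and 1249 CPM in KO26, where WT had 954 to 1186 CPM. *Plagl1*, a zinc finger regulator of other imprinted genes, was at 1.04, 12.1 and 10.6 CPM in KO22 and 690 and 288 CPM in KO26. In both genes the batch 1 library of KO22 was the lowest, and all 3 KO22 libraries lay far below KO26 and WT (log2FC -5.44 ± 0.75 and -6.02 ± 0.71, edgeR adjusted p = 3.79e-04 and 1.45e-04).

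*H19*, a maternally expressed long noncoding RNA, was at 0.0865, 0.289 and 0.0776 CPM in KO22 and 25.1 and 13.1 CPM in KO26, and its neighbour *Igf2* was at 0.0482 CPM or less against 2.00 and 1.16 CPM. *Cdkn1c*, the maternally expressed cell cycle inhibitor p57, had 56 counts in KO26 against 0 in KO22, at least 27.9-fold lower in KO22. *Zim1*, next to *Peg3*, had a log2FC of -6.35 ± 0.43, *Mest* -4.65 ± 0.41 and *Sgce* -3.89 ± 0.24. *Meg3* and *Rian*, maternally expressed noncoding RNAs of one cluster on chromosome 12, were less reduced. *Rian* was at 25.8, 21.6 and 22.6 CPM in KO22 and 160 and 137 CPM in KO26 (log2FC -2.63 ± 0.13, edgeR adjusted p = 9.84e-07), and *Meg3* had a log2FC of -2.65 ± 0.26. Genes expressed from the maternal and from the paternal allele are thus both among the lower ones, and the higher *Grb10* was described above. *Ddc*, which makes dopamine and lies beside *Grb10*, was at 0, 1.21 and 0.698 CPM in KO22 and 31.7 and 17.6 CPM in KO26 (log2FC -5.10 ± 0.57).

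The Y-linked genes were lower in KO22, most of all in its batch 1 library. *Ddx3y*, an RNA helicase, was at 0.605, 5.83 and 4.89 CPM in KO22 and 41.8 and 50.7 CPM in KO26, where WT had 44.8 to 60.03 CPM. *Eif2s3y*, a translation initiation subunit, was at 0.173, 5.01 and 4.03 CPM in KO22 and 30.9 and 47.9 CPM in KO26. As a share of the KO26 library of the same batch, *Eif2s3y* in KO22 was at 0.560% in batch 1 and at 10.5% and 8.43% in batch 2. *Kdm5d* and *Uty*, both histone demethylase genes, were at 1.46% and 3.28% in batch 1, and in batch 2 at 15.01% and 13.6% for *Kdm5d* and 11.1% and 8.81% for *Uty*. All 4 were called lower in KO22, with log2 fold changes of -3.48 to -3.78, and each has a close X-linked relative, whose part in the remaining reads was not tested. *Xist*, the RNA of X inactivation, was at 0.810 CPM or less in every clone library and was not called (log2FC -0.28 ± 0.75, edgeR adjusted p = 0.805).

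*Peg3* and *Plagl1* had the same order of libraries as the Y-linked genes, at 0.310% and 0.151% of KO26 in batch 1 and at 6.42% and 4.14%, and 4.22% and 3.70%, in batch 2. *Gas6* and *Cldn1* were at 0.0824% and 0.102% in batch 1 and at 1.55% and 1.2%, and 2.94% and 1.33%, in batch 2. Other genes had no such order. *Igf1* was at 1.2%, 1.02% and 0.664%, *Postn* at 4.35%, 4.65% and 3.23% and *Col8a2* at 0.769%, 0.212% and 0.570% of KO26 in KO22 replicates 1, 2 and 3. Over the 731 genes lower in KO22 with at least 10 CPM in both KO26 libraries, the median share was 23.5% in batch 1 and 27.6% in batch 2, and it was higher in batch 2 for 472. A share under 1% was found for 42 of them in batch 1 and for 13 in batch 2. The order of the libraries was thus not common to all genes that fell.

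**Figure D3:**
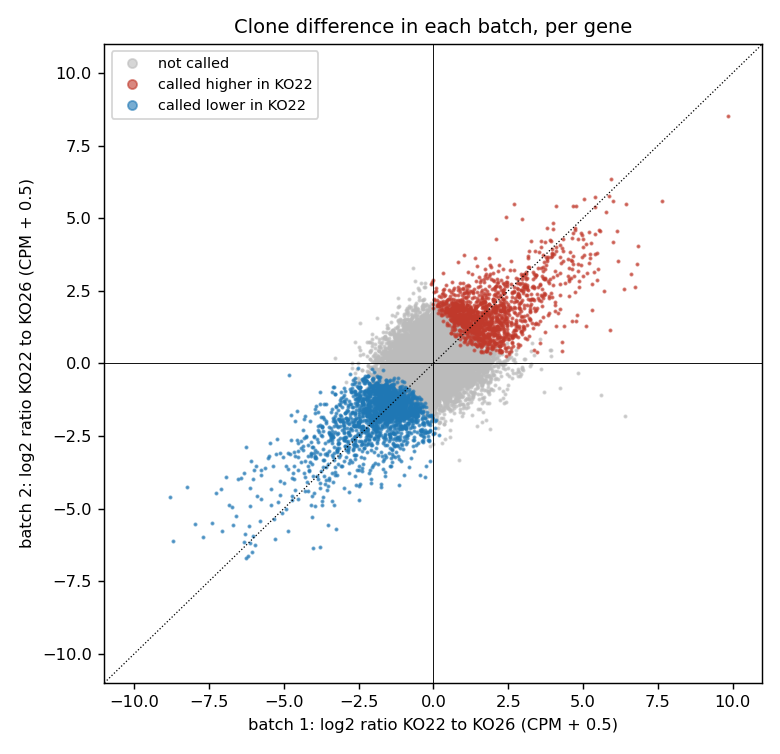
Log2 ratio of KO22 to KO26, from CPM + 0.5, in batch 1 (x axis) and batch 2 (y axis) for 16974 genes with a mean of at least 1 CPM in a clone, with called genes coloured and the dotted line marking equal ratios. Called genes lie almost all in the quadrants of equal sign, which a call from both batches favours.

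The clone difference itself could be compared between batches, since each batch holds both clones. Over 16974 genes the ratios of batch 1 and batch 2, which share no library, had a Pearson r of 0.654 and a Spearman rho of 0.517 across genes, which are not independent. The size of the difference changed with batch: by edgeR's test of the clone by batch interaction, with the same limits, the log2 ratio of KO22 to KO26 was greater in batch 2 for 2218 genes (10.7%) and smaller for 1402 (6.76%). Batch 1 has 1 library per group, so the spread in that test rests on the batch 2 libraries of WT and KO22.

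Transcription factors of the eye field and RPE had 2 of 18 tested members higher and 8 lower in KO22, with a median log2FC of -1.02, and 4 lower in the fit of the 5 clone libraries alone. *Mitf*, the master regulator of pigment cells, was at 20.1, 12.5 and 10.4 CPM in KO22 and 1.62 and 2.08 CPM in KO26, with WT at 3.02 to 6.77 CPM (log2FC 2.97 ± 0.45, edgeR adjusted p = 6.38e-04). *Sox9*, an RPE and glial regulator, was at 111, 63.5 and 77.6 CPM in KO22 and 21.9 and 18.0 CPM in KO26. Both thus rose, while *Pax2*, of the optic stalk, *Lhx2*, of the early eye field, and *Meis2* fell, with log2 fold changes of -3.70, -3.23 and -1.43.

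Of 27 pigment and visual cycle genes 14 were tested, of which 2 were higher, or 4 without KO26 replicate 2, and 3 lower. *Pmel*, the fibril protein of melanosomes, was at 1.21 to 1.78 CPM in KO22 and 2.00 and 2.66 CPM in KO26, and *Best1*, an RPE chloride channel, at 17.4, 4.05 and 3.34 CPM and at 1.76 and 4.395 CPM. Neither was called, and the 2 batches gave *Best1* log2 ratios of 2.98 and -0.23.

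Extracellular matrix genes were lower in KO22 more often than higher. Of 36 collagens tested, 3 were higher, or 1 without KO26 replicate 1, and 13 lower (median log2FC -0.84), and of 12 small leucine-rich proteoglycans 1 was higher and 6 lower (median -1.26). *Col1a1*, of fibrillar collagen I, was at 2059, 1380 and 1148 CPM in KO22 and 6137 and 7596 CPM in KO26 (log2FC -2.17 ± 0.23, edgeR adjusted p = 7.78e-05), with the WT libraries at 3399 to 5406 CPM between them. *Col1a2*, the other chain, had a log2FC of -2.21, and *Col6a1* and *Col6a2*, of microfibrillar collagen VI, had -2.33 and -2.73. *Col11a1* was at 27.2, 33.0 and 25.8 CPM in KO22 and 446 and 440 CPM in KO26 (log2FC -3.88 ± 0.26). *Prelp*, which anchors basement membranes, was at 33.7, 24.8 and 21.3 CPM in KO22 and 144 and 408 CPM in KO26. Matrix proteases and their inhibitors had 2 of 34 higher and 12 lower, or 7 without KO26 replicate 2. *Timp3*, the protease inhibitor of Bruch's membrane, was at 239, 46.4 and 51.4 CPM in KO22 and 731 and 733 CPM in KO26, so that KO22 fell less in batch 1 than in batch 2. Hyaluronan and matricellular genes had 8 of 42 higher and 16 lower.

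Fibroblast and pericyte markers were measured because a culture can hold such cells. Of 11 markers 10 were tested and 4 were lower in KO22, with a median log2FC of -1.23, and *Pdgfrb*, a receptor of pericytes, had -1.45 ± 0.16. Their summed level was 4175 to 6915 CPM in KO22, 12401 and 13415 CPM in KO26 and 8032 to 10868 CPM in WT, most of it from collagens. *Dpt*, a defining fibroblast gene, was under 1 CPM in every library, and *Lum* was not among the genes tested. The part of such cells in the matrix result was not tested. Genes of the epithelial-mesenchymal transition had 4 of 35 higher and 12 lower (median -0.44), and this list holds some of the same matrix genes. Serpins had 4 of 28 higher and 7 lower, and keratins 0 of 9 higher and 2 lower, with 0 to 2 higher and 1 or 2 lower when 1 library was left out.

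Genes of cell junctions moved singly. Tight junction genes had 1 of 26 higher and 5 lower, or 3 lower without KO26 replicate 1, with a median log2FC of 0.04. *Cldn1* was at 0.173, 9.59 and 4.35 CPM in KO22 and 169 and 326 CPM in KO26 (log2FC -6.11 ± 0.56, edgeR adjusted p = 2.87e-05), so it was lower with *Cldn2*. *Jam2*, a junctional adhesion molecule, was at 49.1, 78.6 and 65.0 CPM in KO22 and 3.57 and 6.94 CPM in KO26, above and below a WT range of 10.4 to 14.0 CPM. Cadherins had 2 of 13 higher and 3 lower and integrins 2 of 20 higher and 4 lower. Caveolae and tetraspanin genes had 8 of 29 higher and 3 lower, and the higher ones include *Cav1*, *Cav2* and *Tspan12* of chromosome 6, described below.

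Phagocytosis receptors and ligands had 2 of 19 tested members higher and 3 lower, where the shares over all genes tested were 7.56% and 10.7%, and 1 was higher in 7 of the 9 fits that left out 1 library. *Gas6*, the bridging ligand of the TAM receptors, was at 0.259, 8.34 and 6.44 CPM in KO22 and 315 and 537 CPM in KO26 (log2FC -6.79 ± 0.55, edgeR adjusted p = 1.32e-05), in the same direction as *Mertk*. *Tyro3*, another TAM receptor, was at 6.92, 12.2 and 12.03 CPM in KO22 and 2.97 and 2.08 CPM in KO26 and was called higher (log2FC 1.90 ± 0.34). A ligand and one receptor of the system thus fell while another receptor rose.

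The insulin-like growth factor axis had 1 of 14 members higher and 8 lower in KO22, with a median log2FC of -1.27. The ligands *Igf1* and *Igf2* and the binding proteins *Igfbp2* and *Igfbp5* were given above. *Irs1*, the first adaptor below the receptor, was at 3.81, 9.74 and 7.76 CPM in KO22 and 139 and 85.7 CPM in KO26 (log2FC -3.84 ± 0.38). *Igf1r*, the receptor, had a log2FC of -1.28 ± 0.14, and its call was lost without KO26 replicate 2. Ligands, binding proteins, receptor and adaptor were therefore all represented among the lower genes.

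Other growth factor receptors and ligands went more often the other way, with 12 of 33 higher and 7 lower and a median log2FC of 0.56. *Ereg*, an EGF-family ligand, was at 657, 115 and 156 CPM in KO22 and 5.29 and 7.75 CPM in KO26 (log2FC 5.46 ± 0.70, edgeR adjusted p = 2.36e-04). *Areg*, of the same family, was at 24.8, 2.89 and 5.2 CPM in KO22 and 1.30 and 0.116 CPM in KO26, and *Egfr*, the receptor of both, was lower in KO22, at 28.2, 47.8 and 41.8 CPM against 221 and 259 CPM. *Hgf*, the ligand of *Met*, was at 91.1, 97.8 and 87.6 CPM in KO22 and 2.32 and 6.48 CPM in KO26 (log2FC 4.46 ± 0.36), and *Met* itself was also higher. *Kdr*, VEGF receptor 2, was at 0.346, 3.71 and 2.56 CPM in KO22 and 72.3 and 55.3 CPM in KO26, both below the WT range of 151 to 234 CPM, though only KO22 passed the test against WT. *Hgf* and its receptor thus both rose, and *Ereg* and *Areg* rose while *Egfr* fell.

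Wnt, Notch and Hedgehog genes had 4 of 39 higher and 16 lower in KO22 (median log2FC -0.79). *Lgr5*, an R-spondin receptor that amplifies Wnt signalling, was at 0.346, 1.40 and 0.233 CPM in KO22 and 54.4 and 18.2 CPM in KO26 (log2FC -5.31 ± 0.55). *Hhip*, the decoy receptor that binds Hedgehog ligands, was at 86.6, 99.4 and 90.1 CPM in KO22 and 4.64 and 1.73 CPM in KO26 (log2FC 4.77 ± 0.33, edgeR adjusted p = 4.85e-06). TGF-beta and BMP genes had 5 of 44 higher, or 3 without KO22 replicate 2, and 10 lower, with a median of -0.02.

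Interleukins and chemokines had 21 of 67 tested members higher and 7 lower in KO22, and 15 higher without KO22 replicate 1. *Il33*, an alarmin of the interleukin 1 family, was at 521, 122 and 125 CPM in KO22 and 2.09 and 2.08 CPM in KO26, where WT had 0.144 to 0.437 CPM (log2FC 7.07 ± 0.46, edgeR adjusted p = 3.23e-06). *Il1rl1*, its receptor ST2, was at 256, 207 and 152 CPM in KO22 and 15.5 and 22.3 CPM in KO26, so ligand and receptor were both higher. *Cxcl1*, a neutrophil chemokine, was at 406, 117 and 165 CPM in KO22 and 7.33 and 24.2 CPM in KO26, with each KO26 library below the WT libraries of its batch, at 19.6 CPM in batch 1 and 39.2 to 39.9 CPM in batch 2. *Cxcl12*, the homeostatic chemokine of stromal cells, fell, from 567 and 1188 CPM in KO26 to 187, 144 and 112 CPM in KO22. NF-kB pathway genes had 5 of 30 higher and 1 lower, interferon and MHC genes 2 of 46 higher and 8 lower, and complement genes 2 of 16 higher and 7 lower. Their shares called in either direction were 20.0%, 21.7% and 56.3%, against 18.3% over all genes tested. The interferon count of 8 was 13 without KO22 replicate 1 and 5 without KO26 replicate 1. Without KO26 replicate 2, 3 complement genes and 4 interleukin and chemokine genes were lower.

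A list of glutathione genes and genes linked to NRF2, the regulator of the antioxidant response, had 11 of 45 higher and 4 lower. Its median log2FC was 0.60, and *Slc7a11* was among the higher. *Nqo1*, a quinone reductase, was at 45.7, 29.8 and 32.5 CPM in KO22 and 9.002 and 7.29 CPM in KO26, and both clones were above the WT range of 2.455 to 3.66 CPM. *Gsr*, glutathione reductase, was at 70.9 to 72.4 CPM in KO22 and 19.2 and 10.99 CPM in KO26, and KO26 did not differ from WT by the test. *Sod3*, the extracellular superoxide dismutase, was at 12.3 to 14.4 CPM in KO22 and 0.278 and 0.578 CPM in KO26 (log2FC 4.97 ± 0.43). Genes of the unfolded protein response and ATF4 had 6 of 48 higher and 3 lower, or 5 lower without KO22 replicate 2. The 18.75% of that list called in either direction was near the 18.3% over all genes tested. The p53 and CDK inhibitor genes had 3 of 42 higher and 9 lower. Retinoic acid and steroid handling genes, with *Aldh1a1* and *Adh1* among them, had 3 of 24 higher and 8 lower (median -0.54).

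The fitted log2 fold changes of cell division genes were mostly positive and often under the fold limit. Their summed levels parted mainly in batch 2, and in batch 1 the replication sum was not higher in KO22. The summed replication level was 2543 CPM in KO22 and 2591 CPM in KO26 in batch 1, and 4653 and 4784 against 1950 CPM in batch 2. The mitotic sums were 6688 against 5833 CPM in batch 1, and 10856 and 10329 against 5057 CPM in batch 2. Of 51 DNA replication genes 12 were higher and none lower, with 49 at a positive log2FC and a median of 0.86, and of 53 mitotic genes 10 were higher and none lower, with 50 positive and a median of 0.76. The counts depended on single libraries. Replication had 32 higher genes without KO22 replicate 1, 26 without KO26 replicate 1, 7 without KO22 replicate 3 and 4 without KO26 replicate 2. Mitosis had 22, 16 and 4 without KO22 replicate 1, KO26 replicate 1 and KO26 replicate 2. *Ttk*, a spindle checkpoint kinase, was at 113, 151 and 147 CPM in KO22 and 33.6 and 39.0 CPM in KO26 (log2FC 1.91 ± 0.21). *Pcna*, the replication clamp, was at 175, 295 and 291 CPM in KO22 and 129 and 80.7 CPM in KO26 (log2FC 1.33 ± 0.30, edgeR adjusted p = 0.00607), and its call was lost without KO26 replicate 2. Both clones had more of both genes than any WT library, where *Ttk* was at 12.4 to 18.0 CPM and *Pcna* at 45.9 to 69.9 CPM.

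MYC and ribosome biogenesis genes had 11 of 39 higher and 1 lower (median 0.81). The count of higher genes depended on single libraries, with 20 without KO22 replicate 1 and fewer than 11 without KO26 replicate 2. *Utp4*, a nucleolar assembly factor on chromosome 8, had a log2FC of 2.09 ± 0.20. Summed over the MYC list, KO22 was at 4526 CPM and KO26 at 4423 CPM in batch 1, and at 6217 and 6609 against 2531 CPM in batch 2. *Hmga1*, a chromatin protein of proliferating and embryonic cells, was at 90.5, 222 and 226 CPM in KO22 and 24.1 and 25.9 CPM in KO26. Of the 12 HMG and IGF2BP-type genes tested, 4 were higher and none lower. Housekeeping lists had few calls: none of 79 genes of oxidative phosphorylation, 1 of 80 ribosomal protein genes, none of 9 mitochondrial mRNAs, 2 of 26 glycolysis genes, 1 of 28 cholesterol genes and 2 of 49 lysosome genes were called. These counts also moved with single libraries. Oxidative phosphorylation had 9 higher genes without KO22 replicate 1, 12 without KO26 replicate 1 and 19 in batch 2 alone. The mitochondrial mRNAs all had a positive log2FC, with a median of 0.69, and 4 were called higher without KO22 replicate 1. The direction of their sum reversed between the batches. It was 24300 CPM in KO22 and 34127 CPM in KO26 in batch 1, and 29092 and 30585 against 14576 CPM in batch 2. The oxidative phosphorylation sum also reversed, at 4882 against 7577 CPM in batch 1 and 5122 and 5768 against 3288 CPM in batch 2. Without KO26 replicate 2, 6 ribosomal protein genes and 4 cholesterol genes were lower, and without KO22 replicate 1, 5 glycolysis and 4 lysosome genes were lower and 4 cholesterol genes higher.

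**Figure D4:**
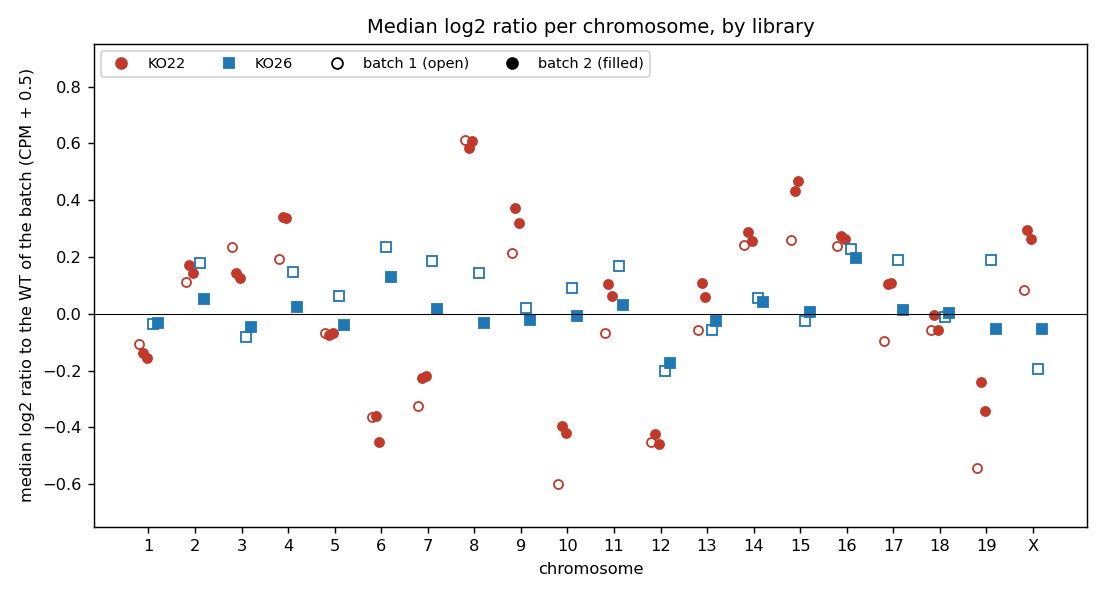
Median log2 ratio of each clone library to the WT of its batch over genes with a mean of at least 1 CPM, by chromosome, with KO22 as circles, KO26 as squares, batch 1 open and batch 2 filled. All 3 KO22 libraries lie high on chromosome 8 and low on chromosomes 6, 10 and 19, and the KO26 libraries stay nearer 0 there.

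The clone difference was not spread evenly over the chromosomes. Over the 882 genes of chromosome 8 with at least 1 CPM, the median log2FC was 0.61, 77.4% of genes had a positive value, and 147 were called higher and 43 lower. On chromosome 10 the median over 772 genes was -0.55, 19.9% were positive, and 28 were higher and 156 lower. Chromosomes 6 and 19 had similar medians, -0.53 and -0.49, and chromosome 7 had -0.35. Against the WT of their batch, the KO22 libraries gave -0.36, -0.36 and -0.45 on chromosome 6. There the KO26 libraries lay above WT, at 0.24 and 0.13. Chromosomes 15, X, 9, 3 and 14 had medians of 0.40, 0.38, 0.35, 0.33 and 0.31. The 3 KO22 libraries, each against the WT of its own batch, gave 0.61, 0.58 and 0.61 on chromosome 8 and -0.60, -0.40 and -0.42 on chromosome 10, while the KO26 libraries gave 0.15 and -0.03, and 0.09 and -0.01. The shift on both chromosomes was therefore seen in every KO22 library and in both batches. On chromosome 16 the clones did not part, at 0.24 to 0.27 in KO22 and 0.23 and 0.20 in KO26. Restricted to genes with at least 10 CPM, the medians of chromosomes 8 and 10 were 0.68 and -0.49. DNA copy number was not measured in these libraries.

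Among 238 windows of 10 Mb with at least 20 genes, 5 had a median log2FC over 0.9 in size: 10 to 20 Mb of chromosome 6 (1.60 over 32 genes), 80 to 90 Mb of chromosome 9 (1.18 over 57 genes), and, with negative medians, 0 to 10 Mb and 20 to 30 Mb of chromosome 10 (-1.30 over 48 genes and -0.95 over 47) and 50 to 60 Mb of chromosome 6 (-0.90 over 60). The number depended on the window: 7 of 313 windows of 5 Mb and 0 of 139 windows of 20 Mb passed 0.9, and the first 20 Mb of chromosome 6 had a median of 0.06. The window of 50 to 60 Mb holds the Hoxa genes, so the Hox result and this window share members, and *Plagl1* lies in the window of 10 to 20 Mb of chromosome 10, outside these 5.

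**Figure D5:**
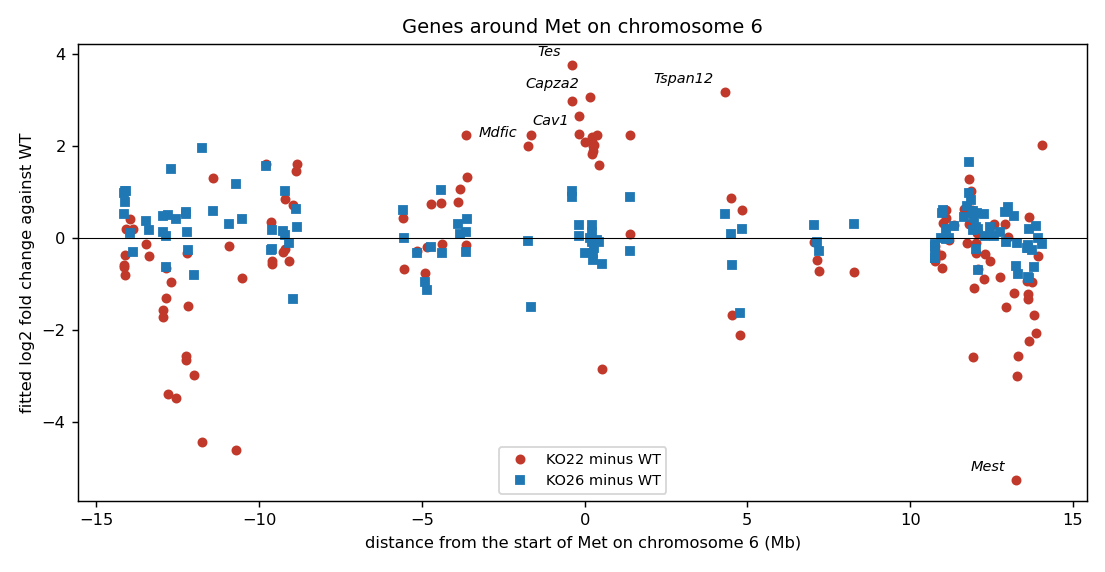
Fitted log2 fold change against WT of KO22 (circles) and KO26 (squares) for genes with at least 1 CPM by distance in Mb from the start of *Met* on chromosome 6. A run of KO22 values near 2 spans about 2 Mb around *Met*, where KO26 stays near 0, and KO22 values on either side return towards 0 or below.

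Within the positive window of chromosome 6, a run of neighbouring genes around *Met* was higher in KO22. The run, chosen after its values were seen, goes from *Mdfic* to *Gm43844*, chr6:15720487-17943024, and all 16 of its genes with at least 1 CPM were called higher, with a median log2FC of 2.23 and a range of 1.54 to 3.73. *Met*, the HGF receptor and a proto-oncogene, was at 373, 424 and 410 CPM in KO22 and 73.1 and 77.5 CPM in KO26 (log2FC 2.40 ± 0.14, edgeR adjusted p = 2.10e-06). WT had 91.5 to 105 CPM, so KO26 lay slightly below and KO22 far above it.

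*Cav1* and *Cav2*, the caveolins of membrane caveolae, had log2 fold changes of 1.98 ± 0.15 and 2.59 ± 0.18, and *Cav1* was at 2171, 1701 and 1504 CPM in KO22 and 593 and 384 CPM in KO26. *Capza2*, an actin-capping subunit, was at 845, 1368 and 1224 CPM in KO22 and 107 and 161 CPM in KO26 (log2FC 3.07 ± 0.26). *Tes*, testin of focal adhesions, *Mdfic*, a transcriptional regulator, and *St7*, a candidate tumour suppressor, had 2.74, 2.06 and 1.54.

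Per library, the median of the run against the WT of the batch was 1.91, 2.04 and 1.93 in KO22 and -0.16 and 0.01 in KO26. The 10 genes before the run had a median log2FC of 0.69 between the clones, with 9 positive and 1 called higher. The 10 genes after it had 0.01, with 5 positive, 2 called higher, of which *Tspan12* had 2.64 ± 0.40, and 1 called lower. The other 843 genes of chromosome 6 had a median of -0.54, with 26 called higher and 184 lower. The ends of the run were set after the values were seen, so its contrast with the rest of the chromosome was favoured by that choice.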

How the data were processed

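The authors trimmed the paired-end reads with Trim Galore 0.6.7, aligned them to mm39 with STAR and deposited raw counts per gene, as taken from STAR and filtered for low counts. The strand setting of the counting is not given in the sources used here. The labels and the methods name different stranded mRNA kits. Only the culture count table was analysed, and its 20910 genes were reduced to 20737 that reached 5 counts in 3 or more libraries. The normalized values and the tissue tables were not used.

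Groups came from the cell line labels and batch from the prefix of the library names. All 9 culture libraries were fitted with edgeR 4.0.16 in R 4.3.3 (TMM, quasi-likelihood test, group and batch as terms), so that KO26, with 2 libraries, shared the spread of the others. A gene was called where the Benjamini-Hochberg adjusted p was below 0.05 and the log2 fold change exceeded 1.2 in size, and the script was tested on simulated data. The SE given after ± is the size of the log2FC over the square root of the F statistic of the test. It is approximate, above all where a clone has few counts. The clone by batch interaction was fitted on the means of group and batch. CPM values use the TMM library sizes, and log2 ratios per library use CPM + 0.5. Ratios of summed counts have exact 95% intervals, which cover counting error only, and the fitted fold of a gene with a clone at 0 depends on the prior count. DESeq2 1.42.0 and the other alternatives are given at the end.

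The members and the 39 gene lists and 8 marker lists were chosen with earlier results of these data known. Named genes were the 10 of smallest adjusted p and the 10 of largest fold in each direction among called protein-coding genes with a mean of at least 10 CPM in the higher clone and no overlap of libraries. Added to these were the genes of largest fold between KO26 and WT that were also called between the clones, those with opposite signs against WT in the clones, those at the floor of 3 counts in a clone, the genes of the study's qPCR, the neighbours of *Prom1* and, of each list, called members of large fold and defining members that were not called. Genes of the run on chromosome 6 and a few other list members were named after their values were seen. The guide was matched to GRCm39, which is mm39.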

Additional observations from a re-analysis of the deposited data

Results flagged for a closer look

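For 35 of the 128 tested genes named above the clone difference itself differed between the batches, by edgeR's interaction test. The limits were an adjusted p under 0.05 and a log2 difference over 1.2 in size. Over all genes tested, 10.7% passed them with a greater log2 ratio in batch 2 and 6.76% with a smaller one. The values below are the log2FC of batch 2 minus that of batch 1, and they rest on 1 library per group in batch 1. Among the genes lower in KO22 the fall was smaller in batch 2 for the Y-linked *Ddx3y* (2.87), *Eif2s3y* (4.04), *Kdm5d* (3.29) and *Uty* (1.61). The same held for the imprinted genes *Peg3* (4.10), *Plagl1* (4.72), *Zim1* (4.30), *Mest* (2.62) and *Sgce* (1.21). It also held for *Gas6* (4.04), *Cldn1* (4.395), *Kdr* (3.59), *Lgr5* (3.001), *Igfbp2* (1.83) and *Irs1* (1.92). *Hoxa5* (6.29), *Hoxa7* (7.74), *Lhx2* (6.48) and *Ddc* (7.82) had 0 counts in the batch 1 library of KO22, so the size of these values depends on the prior count of the fit. The fall was larger in batch 2 for *Cxcl12* (-1.61), *Ogn* (-1.35), *Prelp* (-2.04), *Timp3* (-2.29) and *Cpeb2* (-1.77).

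Among the genes higher in KO22 the difference was smaller in batch 2 for *Cxcl1* (-3.25), *Ereg* (-2.83), *Il33* (-2.07), *Grem1* (-2.02), *Hgf* (-1.45) and *Csgalnact1* (-2.27). It was larger in batch 2 for *Hmga1* (1.21), *Pcna* (1.42), *Tyro3* (1.32) and *Hhip* (1.55). *Best1*, which was not called, differed by -3.53 between the batches.

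One WT library lay far from the other 3 in 9 of the genes by Dixon's 95% limit for the gap over the range of the group, which chance passes in about 1 in 20 groups. In 8 of them it was replicate 1, the only WT library of batch 1, at 95.8 CPM for *Cc2d2a*, 19.6 for *Cxcl1*, 80.9 for *Grem1*, 27.3 for *Il1rl1*, 203 for *Irs1*, 234.5 for *Kdr*, 11.96 for *Pink1* and 78.6 for *Tapt1*. For *Hmga1* it was replicate 4, at 20.2 CPM. The groups of 3 KO22 and 2 KO26 libraries were too small for this rule.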

How the results depend on the processing

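The counts of 1568 higher and 2229 lower genes stayed within 1.5 times under DESeq2, other size factors, other count filters, no batch term, a log2 limit of 1 and the libraries of batch 2 alone. With 1 WT or KO22 library left out they ranged from 1272 to 1832 higher and from 2006 to 2397 lower. The genes behind similar counts were not all the same. Without KO22 replicate 1, 1164 of the 1568 higher and 1931 of the 2229 lower genes kept their call. Fewer kept it when a KO26 library was left out, which leaves 1 library in that group. The counts moved to 988 and 1348 in the fit of the 5 clone libraries alone and to 3388 and 3744 with no fold limit. They moved to 587 and 955 when the test itself was run against a log2 fold change of 1.2. Of the 123 called genes named here, 123 had the same direction in every fit that tested them, and 89 passed the limits in all 20 settings. These settings include the main fit with no fold limit and with a log2 limit of 1, where no call could be lost. In 24 genes at least 1 fit gave no value, because the count filter could not be met with fewer libraries, and 13 lost their call in at least 1 fit, 7 of them on leaving out a library (*Cc2d2a*, *Cpeb2*, *Igf1r*, *Kcnh5*, *Pcna*, *Scin* and *Tnfrsf11a*). Of genes not called, *Best1* changed sign, at -0.26 in batch 2 alone and at -0.23 and -0.17 in the batch 2 ratio with pseudocounts of 0.5 and 2, and *Xist*, at -0.28, ranged from -1.09 without KO26 replicate 1 to 0.19 without KO22 replicate 1 and 0.79 without KO26 replicate 2. The cause was not tested. No paired analysis was possible because the labels give no replicate numbers shared between the clones. KO26 had 2 libraries with the smallest at 8076188 counts, so for genes near 1 CPM a difference may not have been detectable.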
